A study of Mus musculus with 2 samples.

Results

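The blood-brain barrier transporters and junction genes described here are *Cldn5*, *Tjp1*, *Slc2a1*, *Slc7a5*, *Slc16a1*, *Mfsd2a*, *Slco1a4*, *Slco1c1*, *Abcb1a* and *Abcg2*, 10 of the 28692 genes counted in each library. They were chosen by symbol, and their unique molecular identifiers (UMIs, one for each captured transcript molecule) were summed over the cells of 8 classes. The cells came from the ventral parafacial region, a part of the brainstem that holds respiratory chemoreceptor neurons, of 10-day-old C57BL6/J mice, and were profiled with 10x v2 chemistry. The untreated library (labelled WT, batch 1) and the 4OH-tamoxifen library (batch 2, 0.2 mg per day for 3 days) each pooled 8 animals, of which 4 were male and 4 female. With 1 library per condition, treatment and batch cannot be told apart and no test between conditions was made. The mice of both libraries were wild type, and 4OH-tamoxifen is a ligand of estrogen receptors that is often used to switch on Cre.

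The blood-brain barrier is formed by brain endothelial cells that are sealed by tight junctions, take up and pass on few vesicles, and carry nutrients inward through specific transporters while efflux pumps return many drugs and metabolites to the blood. Wnt signals from neural cells, relayed by beta-catenin, are known to induce and maintain this programme, and pericytes and astrocyte endfeet surround the vessel wall. Several of the carriers are not peculiar to endothelial cells, since glia also handle glucose, lactate and amino acids.

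A cell entered a class when it had at least 2 UMIs of that class's gate marker and when that marker made up a share of at least 0.75 of the UMIs of all 8 gate markers. The gates were *Flt1* for endothelial, *Kcnj8* for pericyte, *Dcn* for fibroblast, *Aqp4* for astrocyte, *Pdgfra* for oligodendrocyte precursor (OPC), *Mog* for oligodendrocyte, *C1qa* for microglia and *Snap25* for neuron. Of 3339 untreated and 8558 4OH-tamoxifen cells that passed the filters, 59.3% fell in a class. The endothelial gate held 199 untreated cells with a median of 5220 UMIs and 269 4OH-tamoxifen cells with a median of 3824 UMIs. The other gates held between 20 and 1597 cells per library, with the fewest in pericyte (35 and 20) and fibroblast (30 and 23). All 10 endothelial markers other than the gate (*Pecam1*, *Cdh5*, *Tie1* and others) were raised there, that is at least 2-fold above the other classes and found in at least 10% of cells. So were 8 of 9 pericyte markers, at a summed 2081 and 2601 CPM (UMIs of a gene per 1000000 UMIs of the cells summed), against 19308 and 15503 CPM in pericyte-gated cells, and their part in the results was not tested. The libraries shared 40 barcodes, 32 of them among kept cells.

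The stretches of DNA just before the starts of 4 members are shown because these genes span the patterns found below. *Cldn5* and *Slco1a4* were at background level in every glial class, and *Slco1c1* and *Slco1a4* were the members that differed between artery- and vein-marker cells. *Mfsd2a* was the member with the highest level relative to endothelial cells in astrocyte- and OPC-gated cells. Each run covers the 250 bases before the RefSeq start on GRCm38.p6, written 5′ to 3′ on the gene's strand, with capitals marking letters that matched a searched motif. They lie at chr16:18776597-18776846, plus strand (*Cldn5*), chr6:141856221-141856470, minus strand (*Slco1a4*), chr6:141524104-141524353, plus strand (*Slco1c1*), and chr4:122961189-122961438, minus strand (*Mfsd2a*).
Cldn5: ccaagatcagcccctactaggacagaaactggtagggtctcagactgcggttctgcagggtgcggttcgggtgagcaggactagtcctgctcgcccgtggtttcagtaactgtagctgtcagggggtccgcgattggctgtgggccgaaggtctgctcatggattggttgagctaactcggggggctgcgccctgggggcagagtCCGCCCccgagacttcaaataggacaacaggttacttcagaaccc
Slco1a4: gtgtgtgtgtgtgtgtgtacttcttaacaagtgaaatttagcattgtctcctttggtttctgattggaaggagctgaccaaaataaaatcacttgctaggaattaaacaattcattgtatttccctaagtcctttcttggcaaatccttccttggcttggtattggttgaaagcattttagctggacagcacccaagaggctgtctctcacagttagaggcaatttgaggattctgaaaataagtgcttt
Slco1c1: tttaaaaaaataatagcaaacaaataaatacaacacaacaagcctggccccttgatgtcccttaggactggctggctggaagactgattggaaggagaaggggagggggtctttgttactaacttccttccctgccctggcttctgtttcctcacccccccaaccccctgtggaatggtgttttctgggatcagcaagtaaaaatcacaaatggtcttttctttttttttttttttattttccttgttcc
Mfsd2a: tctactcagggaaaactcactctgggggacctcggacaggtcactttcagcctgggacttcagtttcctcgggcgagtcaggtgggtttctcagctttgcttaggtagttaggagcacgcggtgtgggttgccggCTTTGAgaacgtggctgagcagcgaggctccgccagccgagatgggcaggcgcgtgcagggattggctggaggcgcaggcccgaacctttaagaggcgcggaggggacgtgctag
The motifs searched on both strands were CTTTGA (a TCF/LEF core, the site type of Wnt effectors), CAGGAA (an ETS core, the site type of *Erg* and *Fli1*), GGGCGG (a GC box) and TATAAA, and none of them overlaps another. Over the 32851 RefSeq windows of the same length, 13.8% held CTTTGA or its reverse complement, 25.7% CAGGAA, 32.7% GGGCGG and 12.4% TATAAA. *Cldn5* held 1 GC box, 45 bases before the start, and *Mfsd2a* held 1 CTTTGA, 115 bases before the start. *Slco1a4* and *Slco1c1* held none of these letters, and their windows were poorer in G and C (39.2% and 42.8%) than the median window (52.4%). Promoters were matched for 9 of the 10 members, all but *Slc7a5*. The printed windows end within 21 bases of the GENCODE gene start. Among the others, the *Abcb1a* window held CTTTGA on each strand, 153 and 58 bases before the RefSeq start, but it lies 93 kb before the gene start given below. The window of *Tjp1* and those of 2 *Abcg2* starts lie within the gene. GC boxes stood before *Tjp1*, *Slc2a1*, *Slc16a1* and 2 of the 3 *Abcg2* starts, where CAGGAA was also found. A match is a run of letters and was not tested as a site.

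All 10 members were highest in endothelial-gated cells. In edgeR's quasi-likelihood test across 12977 genes, each of the 10 was higher there than in the mean of the other 7 classes, beside a background of 25.2% of all genes called higher and 12.4% called lower. The median log2 difference over all tested genes was 0.16, and the members lay between 2.49 (*Tjp1*) and 8.41 (*Slco1a4*). With DESeq2, which changes both the scaling and the test, the all-gene median shifted by -0.31 and 48.5% rather than 67% of calls were in the higher direction, and all 10 members were called higher there too. The 2 libraries served as the replicates of each class. A library term took up the difference that all classes shared. The spread therefore includes treatment and batch only as far as their difference varied between classes. Against each other class alone, all 10 members were higher in endothelial-gated cells in the same fit. The share of all genes called there in either direction was 9.82% against pericyte, 13.1% against fibroblast, 52.2% against astrocyte, 45.4% against OPC, 51.8% against oligodendrocyte, 40.2% against microglia and 62.5% against neuron.

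**Figure D1:**
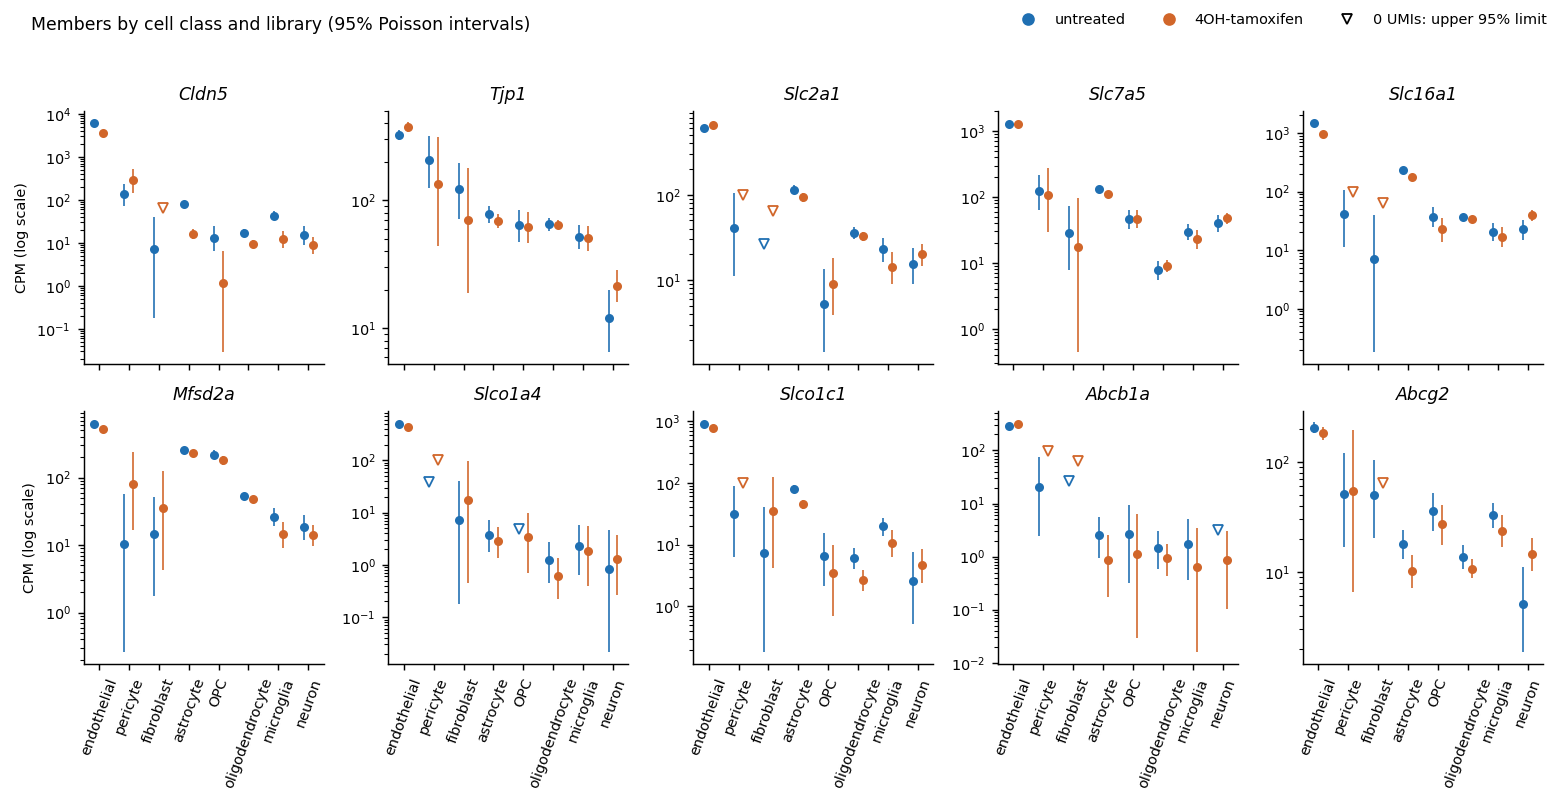
Level of each member in CPM (log axis) in the 8 gated classes, for the untreated (blue) and 4OH-tamoxifen (orange) libraries, with 95% Poisson intervals; open triangles mark sums with 0 UMIs at their upper limit. In every panel the endothelial points are the highest, and the second-highest class differs between members.

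*Cldn5* encodes claudin-5, the main sealing claudin of brain endothelial tight junctions (ENSMUSG00000041378, chr16:18776847-18778262, plus strand). Its level in endothelial-gated cells was 6238 CPM (95% interval 6108 to 6370) in the untreated library and 3675 CPM (3573 to 3779) after 4OH-tamoxifen. Pericyte-gated cells came second with 134 and 297 CPM from 13 and 11 UMIs, a place that went to fibroblasts (56.7 and 72.5 CPM) with Leiden clusters as classes, where pericytes had 18.3 and 13.3 CPM, and every other class lay between 1.14 and 80.7 CPM where a UMI was found. No other class overlapped the endothelial one, and the endothelial sums held 95.8% of all *Cldn5* UMIs counted in gated cells. The level was 245 times (226 to 266) that of the other 7 classes together, with 176 times untreated and 329 times after 4OH-tamoxifen. The fitted log2 difference was 8.14 ± 0.14 (SE; edgeR, adjusted p = 3.92e-61), the smallest p of all genes tested. When cells of other classes with at least 2 UMIs of 8 endothelial reference genes were left out, a choice made after seeing the data, the ratio was 482.

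*Tjp1* encodes ZO-1, the scaffold that ties claudins to the actin skeleton and that also serves junctions of other cell types (ENSMUSG00000030516, chr7:65296165-65527781, minus strand). It had the smallest excess in endothelial-gated cells, with 326 CPM (296 to 357) and 374 CPM (342 to 408). Pericyte-gated cells had 206 and 135 CPM, fibroblast-gated cells 122 and 69.8 CPM, and the 4 glial classes between 50.8 and 77.7 CPM in either library. Neuron-gated cells were lowest, at 11.9 and 21.4 CPM. The untreated endothelial interval overlapped the pericyte interval of that library (126 to 318), and so did none of the other classes' intervals. The ratio to the other classes together was 5.83 (5.38 to 6.31), and the fitted log2 difference was 2.49 ± 0.14 (edgeR, adjusted p = 3.46e-28).

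*Slc2a1* encodes GLUT1, the glucose carrier of the barrier (ENSMUSG00000028645, chr4:119108711-119137983, plus strand). Endothelial-gated cells had 606 CPM (566 to 648) untreated and 659 CPM (616 to 704) with 4OH-tamoxifen. Astrocyte-gated cells followed with 115 and 92.9 CPM, and oligodendrocyte-gated cells had 35.9 and 32.5 CPM. Pericyte-gated cells had 41.1 CPM untreated, from 4 UMIs, and 0 UMIs with 4OH-tamoxifen. OPC-gated cells had 5.3 and 9.13 CPM, and fibroblast-gated cells had 0 UMIs, which at 3 counts over both libraries allows up to 15.3 CPM. The ratio to the other classes together was 15 (13.9 to 16.1). The fitted log2 difference was 5.92 ± 0.18 (edgeR, adjusted p = 1.21e-44), a value that depends on the prior count because of the class at 0.

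*Slc7a5* encodes LAT1, which carries large neutral amino acids, L-DOPA and thyroid hormone (ENSMUSG00000040010, chr8:121881150-121907694, minus strand). Its endothelial levels had overlapping intervals in the 2 libraries, 1297 CPM (1238 to 1358) and 1285 CPM (1225 to 1348). Astrocyte-gated cells had 131 and 111 CPM and pericyte-gated cells 123 and 108 CPM, the latter from 12 and 4 UMIs. It was lowest in oligodendrocyte-gated cells, at 7.88 and 8.97 CPM. The ratio to the other classes was 32.3 (30.2 to 34.5) and the fitted log2 difference 5.09 ± 0.12 (edgeR, adjusted p = 1.78e-52). Averaging CPM over single cells in place of summing UMIs gave a ratio of 20.2, and a limit of 10% on mitochondrial UMIs gave 49.9.

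*Slc16a1* encodes MCT1, a carrier of lactate, pyruvate and ketone bodies (ENSMUSG00000032902, chr3:104638668-104658462, plus strand). Endothelial-gated cells had 1451 CPM (1389 to 1516) untreated and 976 CPM (924 to 1031) with 4OH-tamoxifen. Astrocyte-gated cells had 229 and 175 CPM, oligodendrocyte-gated cells 36.3 and 33.8 CPM and neuron-gated cells 22.9 and 39 CPM. Both endothelial values were above all other classes in either library. The ratio to the other classes was 18.8 (17.8 to 19.9), and the fitted log2 difference was 5.44 ± 0.14 (edgeR, adjusted p = 5.15e-49).

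*Mfsd2a* encodes a transporter of lysophosphatidylcholine that brings docosahexaenoic acid into the brain and restrains vesicle transport across endothelial cells (ENSMUSG00000028655, chr4:122946850-122961188, minus strand). Its endothelial level was 620 CPM (579 to 662) untreated and 524 CPM (486 to 565) with 4OH-tamoxifen. It stood out among the members for its level in glia, with 255 and 230 CPM in astrocyte-gated cells and 219 and 180 CPM in OPC-gated cells. Oligodendrocyte-gated cells had 52.5 and 48 CPM. The endothelial intervals overlapped none of the glial ones. Only 37.8% of the *Mfsd2a* UMIs of gated cells were in the endothelial class, although the ratio to the other classes was 6.47 (6.08 to 6.9). The fitted log2 difference was 3.70 ± 0.15 (edgeR, adjusted p = 1.85e-37), and that against astrocyte-gated cells alone was 1.2 (edgeR, adjusted p = 1.44e-08).

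*Slco1a4* and *Slco1c1* are organic anion transporters of one family, both on chromosome 6. *Slco1a4* encodes OATP1A4, which moves steroid conjugates, bile acids and drugs (ENSMUSG00000030237, chr6:141805440-141856199, minus strand). Endothelial-gated cells had 498 CPM (462 to 536) and 432 CPM (398 to 469). Outside them only 47 UMIs were counted in all 7 classes, and no class of over 100 cells in a library exceeded 3.78 CPM. The endothelial class held 96.4% of its gated UMIs, the ratio was 290 (216 to 396), and the fitted log2 difference was 8.41 ± 0.20 (edgeR, adjusted p = 4.29e-52), which depends on the prior count because pericyte-gated cells had 0 UMIs.

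*Slco1c1* encodes OATP1C1, the carrier of thyroxine (ENSMUSG00000030235, chr6:141524368-141570177, plus strand). Its endothelial level was 906 CPM (857 to 957) untreated and 775 CPM (728 to 824) with 4OH-tamoxifen. Unlike *Slco1a4*, it had a clear astrocyte level, 79.4 CPM (68.5 to 91.6) and 44.7 CPM (38 to 52.3). Microglia-gated cells had 19.6 and 10.7 CPM, and OPC-, oligodendrocyte- and neuron-gated cells at most 6.62 CPM. The ratio to the other classes was 51.3 (46.4 to 56.7) and was 93.4 when cells were limited to 10% mitochondrial UMIs. Astrocyte-gated cells had medians of 12.5% and 11.4% mitochondrial UMIs, and the part of this limit in the ratio was not tested. The fitted log2 difference was 6.31 ± 0.15 (edgeR, adjusted p = 2.41e-52).

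*Abcb1a* encodes P-glycoprotein, the best-known drug efflux pump of the barrier (ENSMUSG00000040584, chr5:8660077-8748575, plus strand). Endothelial-gated cells had 293 CPM (265 to 323) untreated and 310 CPM (281 to 341) with 4OH-tamoxifen. All other classes together had 20 and 16 UMIs, or 1.8 and 0.884 CPM. The ratio was 244 (175 to 351), with 161 after thinning every cell to 2000 UMIs and 499 without the cells that carried endothelial reference UMIs, the choice made after seeing the data. The fitted log2 difference was 8.07 ± 0.22 (edgeR, adjusted p = 6.55e-48), which again depends on the prior count because fibroblast-gated cells had 0 UMIs. Its paralog *Abcb1b*, with which reads could be shared, had 0.731 CPM in endothelial-gated cells.

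*Abcg2* encodes the pump BCRP, which works beside P-glycoprotein and is also found in stem and progenitor cells (ENSMUSG00000029802, chr6:58584523-58695676, plus strand). Its endothelial level was 205 CPM (182 to 230) and 182 CPM (159 to 206). OPC-gated cells had 35.8 and 27.4 CPM, microglia-gated cells 32.8 and 23.8 CPM, and pericyte-gated cells 51.4 and 54 CPM from 5 and 2 UMIs. Both pumps were thus highest in the endothelial class, but the ratio of *Abcg2* was 12.6 (11.1 to 14.3), with 54.1% of its gated UMIs there. The fitted log2 difference was 3.18 ± 0.17 (edgeR, adjusted p = 4.73e-29).

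To see which of the lower levels were above what free or attached endothelial RNA would give, each class's level was expressed as a percent of the endothelial level and set beside the same percent for 8 endothelial reference genes (*Pecam1*, *Cdh5*, *Egfl7*, *Emcn*, *Tek*, *Ly6c1*, *Tie1* and *Kdr*). A member whose interval lay above the highest reference gene in both libraries was counted as above background. The share of all genes that would pass this rule was not taken, so the counts describe the members only. In astrocyte-gated cells the reference genes reached 2.07% and 1.28%, and 7 members lay above them. These were *Mfsd2a* (41.1% and 43.9%), *Tjp1* (23.9% and 18.4%), *Slc2a1* (18.9% and 14.1%), *Slc16a1* (15.8% and 17.9%), *Slc7a5* (10.1% and 8.63%), *Abcg2* (8.8% and 5.65%) and *Slco1c1* (8.76% and 5.77%). *Cldn5*, *Slco1a4* and *Abcb1a* were at 1.29% or below in astrocyte-gated cells and did not exceed the reference genes in any class in both libraries.

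In OPC-gated cells 4 members were above background, *Mfsd2a* at 35.3% and 34.4%, *Tjp1* at 19.5% and 16.5%, *Abcg2* at 17.4% and 15.1% and *Slc7a5* at 3.57% and 3.64%. Oligodendrocyte-gated cells had 5, *Tjp1* (19.9% and 17.3%), *Mfsd2a* (8.46% and 9.14%), *Abcg2* (6.67% and 5.91%), *Slc2a1* (5.92% and 4.93%) and *Slc16a1* (2.5% and 3.47%). Microglia-gated cells had 2, *Abcg2* (16% and 13.1%) and *Tjp1* (15.9% and 13.6%). Thus *Tjp1* and *Abcg2* were above background in all 4 glial classes and *Mfsd2a* in 3 of them. In pericyte-, fibroblast- and neuron-gated cells 0 members met the rule in both libraries, where 1 reference gene set the limit. This was *Emcn* in pericyte-gated cells (39.4% and 126%, the next gene 17.4% and 35.3%), *Cdh5* in fibroblast-gated cells (26.5% and 17.8%, the next 2.83% and 16%) and *Egfl7* in neuron-gated cells (5.72% and 5.17%, the next 1.15% and 0.789%). Against the second-highest reference gene, a rule chosen after seeing the data, 4 members passed in neuron-gated cells (*Tjp1*, *Slc2a1*, *Slc7a5* and *Mfsd2a*), 4 in microglia-gated cells (*Slc2a1* and *Mfsd2a* in addition), 5 in OPC-gated cells (*Slc16a1* in addition), and 0 in pericyte- and fibroblast-gated cells, with 7 in astrocyte- and 5 in oligodendrocyte-gated cells as before. *Tjp1* passed it in the untreated library in pericyte-gated (63.2%, 38.2 to 98.8) and fibroblast-gated cells (37.5%, 21.7 to 60.7), but not with 4OH-tamoxifen, where it had 5 and 4 UMIs. *Abcg2* passed it in untreated fibroblast-gated cells (24.5%, 9.76 to 51.1, from 7 UMIs) and had 0 UMIs there with 4OH-tamoxifen. Both rules cover endothelial RNA only. Astrocyte markers summed to 1151 and 1200 CPM in neuron-gated and to 822 and 1411 CPM in microglia-gated cells. In OPC-gated cells they summed to 1415 and 2099 CPM, and in astrocyte-gated cells to 10064 and 9827 CPM. The part of astrocyte RNA in these passes was not tested.

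**Figure D2:**
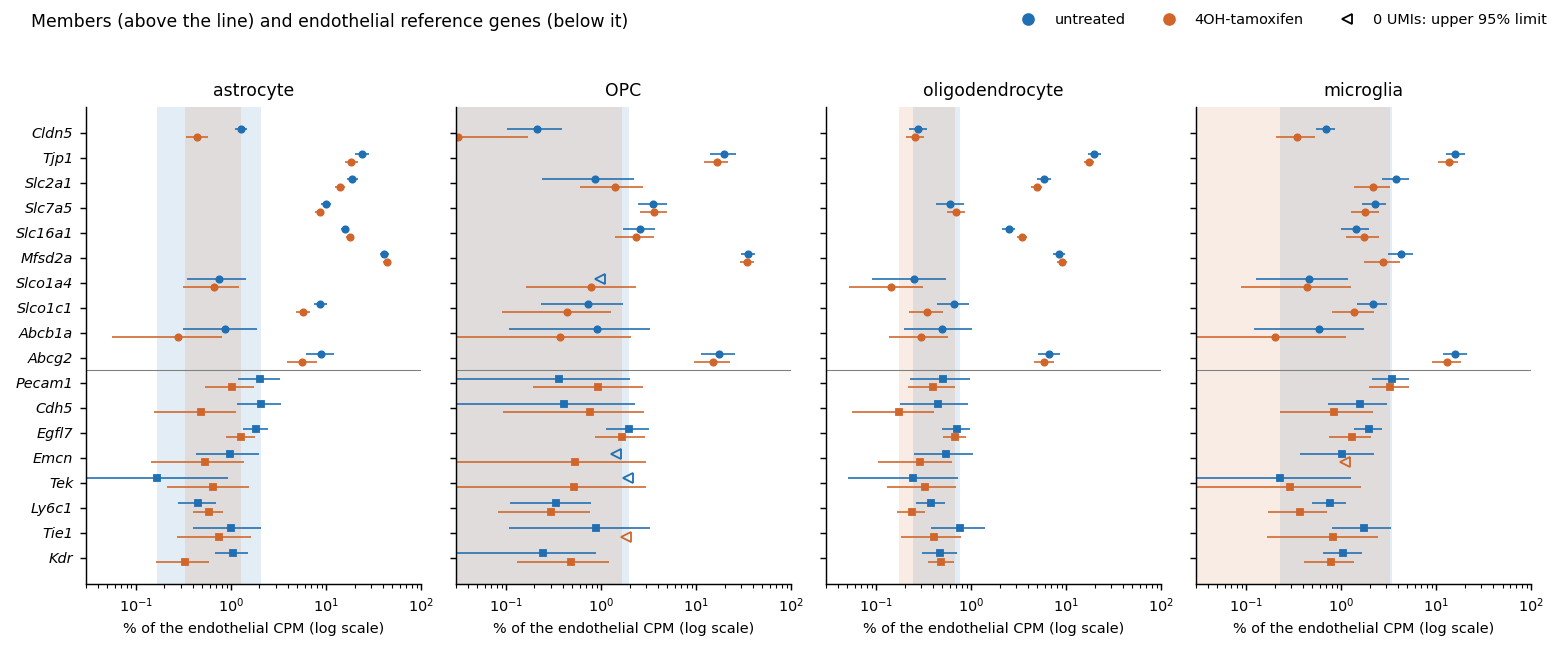
Level in 4 glial classes as a percent of the level in endothelial-gated cells (log axis), for the 10 members (circles) and 8 endothelial reference genes (squares), with 95% intervals; blue is untreated, orange 4OH-tamoxifen, shaded bands span the reference genes, and open triangles mark 0 UMIs at the upper limit. *Mfsd2a*, *Tjp1* and *Abcg2* lie to the right of the bands in astrocyte-, OPC- and oligodendrocyte-gated cells, while *Cldn5*, *Slco1a4* and *Abcb1a* lie within or below them.

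A few cells held much of the low *Cldn5* signal in the untreated library. Leaving out the 7 of 786 untreated astrocyte-gated cells (0.891%) with at least 2 UMIs of the reference genes reduced *Cldn5* there from 192 to 52 UMIs and from 80.7 to 22.2 CPM, and in the 4OH-tamoxifen library from 57 to 39 UMIs. The same step changed *Mfsd2a* in those cells from 607 to 598 UMIs, *Slc16a1* from 546 to 532 UMIs and *Slco1c1* from 189 to 181 UMIs. In untreated microglia-gated cells 13 of 397 cells were left out, and *Cldn5* went from 75 to 18 UMIs and *Slco1c1* from 34 to 10 UMIs, whereas *Abcg2* went from 57 to 56 UMIs. In pericyte-gated cells 5 of 35 and 3 of 20 cells were left out, and *Cldn5* went from 13 and 11 UMIs to 0 and 1 UMI. *Tjp1* remained at 196 and 136 CPM in the pericyte-gated cells that were kept.

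The order of the 8 classes was then compared between neighbours for each member, in the same edgeR fit and with p-values adjusted over all genes. Of 70 neighbouring pairs 23 passed the threshold of 0.05. Among all genes, 3.91% were called between pericyte and fibroblast, and pericyte differed in 13.1% from astrocyte, 11.1% from OPC, 20% from oligodendrocyte, 13.5% from microglia and 26.2% from neuron. Fibroblast differed in 17.1%, 15.4%, 24.6%, 16.4% and 30.9% from the same 5 classes. Astrocyte differed in 33.7% from OPC, 54.3% from oligodendrocyte, 49.6% from microglia and 55.3% from neuron. OPC differed in 45% from oligodendrocyte, 40% from microglia and 48.8% from neuron, oligodendrocyte in 53% from microglia and 63.4% from neuron, and microglia in 64.5% from neuron. Endothelial-gated cells differed from the second class for all 10 members, and the second class differed from the third for 5. Astrocyte-gated cells were second for *Slc2a1*, *Slc7a5*, *Slc16a1*, *Mfsd2a* and *Slco1c1*, and pericyte-gated cells for *Cldn5*, *Tjp1*, *Abcb1a* and *Abcg2*. In Leiden classes pericytes stayed second in both libraries for *Tjp1* but not for *Cldn5*, *Abcb1a* or *Abcg2*. The pericyte sums of *Abcb1a* were 2 and 0 UMIs in the untreated and 4OH-tamoxifen libraries, and both were 0 without the cells that carried endothelial reference UMIs. For *Mfsd2a* the order endothelial, astrocyte, OPC and oligodendrocyte held at each step, with log2 differences of 1.2, 0.66 and 1.37 (edgeR, adjusted p = 1.44e-08, 0.00382 and 5.04e-09). For *Slc16a1* astrocyte-gated cells were above oligodendrocyte-gated cells by 2.27 on the log2 scale (edgeR, adjusted p = 2.53e-17), and for *Slc2a1* by 1.36 (edgeR, adjusted p = 4.35e-09). For *Slc7a5* astrocyte- and pericyte-gated cells were both at 119 CPM and did not differ beyond their spread (log2 difference 0.46, edgeR, adjusted p = 0.49). For *Abcb1a* and *Slco1a4* none of the 6 neighbouring pairs below the endothelial class passed. The fibroblast-gated cells that came second for *Slco1a4* had 2 UMIs.

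The members were also counted cell by cell. *Cldn5* was found in all 199 untreated and in 99.3% of the 4OH-tamoxifen endothelial-gated cells, and *Slc7a5*, *Slc16a1*, *Slc2a1*, *Mfsd2a* and *Slco1c1* in 84.4% to 93.5%. *Tjp1* was found in 79.9% and 73.2%, *Slco1a4* in 72.4% and 69.1%, *Abcb1a* in 70.9% and 62.8%, and *Abcg2* in 63.3% and 50.6%. Microglia-gated cells, with median depths of 4106 and 2382.5 UMIs against 5220 and 3824 UMIs, gave 5.29% and 3.12% for *Cldn5*, 1.01% and 0.493% for *Slco1a4* and 0.504% and 0.164% for *Abcb1a*. To compare shares at 1 depth, each cell was thinned to 2000 UMIs, which left 191 and 230 endothelial-gated cells. *Cldn5* was then in 99.5% and 98.7%, *Slc16a1* in 85.3% and 78.3%, *Slc7a5* in 83.8% and 82.6%, and *Abcg2* in 35.1% and 30.4% of them. *Mfsd2a* at that depth was in 36.7% and 31.5% of astrocyte-gated and 34.8% and 28.2% of OPC-gated cells, against 4.15% and 2.05% of microglia-gated cells.

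Members were found together in the same cells. Before thinning, endothelial-gated cells had a median of 9 members with a UMI untreated and 8 after 4OH-tamoxifen, and 68 and 63 cells had all 10. After thinning the medians were 7 and 6, and 86.4% and 86.5% of cells had at least 5 members. In the other classes at most 3.33% of thinned cells had 5 or more, and the thinned medians were at most 1. Within thinned endothelial-gated cells the members' counts were only weakly related. Over the 45 pairs, Pearson's r of UMIs across cells had a median of 0.11 untreated and 0.06 with 4OH-tamoxifen, and ranged from -0.10 to 0.44 and from -0.12 to 0.30. These cells share a library and the counts are low, so these are descriptions. The highest r was that of *Slc16a1* with *Slco1c1* untreated (0.44) and of *Slco1a4* with *Slco1c1* with 4OH-tamoxifen (0.30). *Cldn5*, with a median of 13 UMIs per thinned cell untreated (quartiles 9 and 18) and 7 with 4OH-tamoxifen (5 and 10), was the only member whose median cell had over 3 UMIs.

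**Figure D3:**
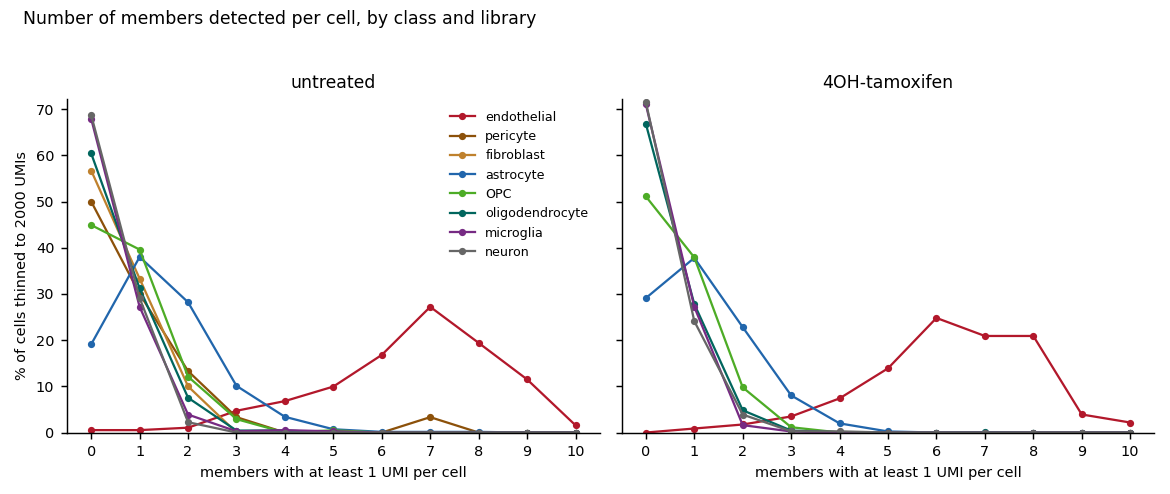
Percent of cells (thinned to 2000 UMIs) by the number of members with at least 1 UMI, for each class with at least 30 thinned cells, untreated on the left and 4OH-tamoxifen on the right. Endothelial-gated cells peak at 7 and 6 members, and the other classes at 0 or 1.

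Endothelial-gated cells were divided by artery markers (*Bmx*, *Gkn3*, *Sema3g*, *Efnb2*, *Hey1*, *Gja4*, *Fbln5* and *Dll4*) and vein markers (*Nr2f2*, *Icam1*, *Lcn2*, *Ackr1*, *Il1r1* and *Ephb4*), with at least 2 UMIs of one list and more than of the other. There were 91 and 99 artery-marker cells, 30 and 38 vein-marker cells and 78 and 132 in neither group. Over both libraries, artery-marker cells had 343 UMIs of *Gja4*, 238 of *Hey1* and 144 of *Dll4*, but 19 of *Bmx* and 18 of *Gkn3*. Vein-marker cells had 133 UMIs of *Nr2f2*, 86 of *Ephb4* and 59 of *Icam1*. *Nr2f2* was highest in pericyte-gated cells, at 395 CPM, and the part of pericyte RNA in this split was not tested. *Slco1a4* was lower in vein-marker than in artery-marker cells. It had 677 and 584 CPM in artery-marker cells, 488 and 443 CPM in cells of neither group and 226 and 195 CPM in vein-marker cells, and the intervals of artery and vein did not overlap in either library. *Slco1c1* ran the same way, with 1038 and 869, 902 and 799, and 704 and 603 CPM. In an edgeR fit on the 6 sums, with segment markers left out, 2 of the 10 members were called between artery- and vein-marker cells, beside 4.53% of all genes.

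The log2 difference of artery minus vein was 1.54 ± 0.14 for *Slco1a4* (edgeR, adjusted p = 3.98e-16) and 0.50 ± 0.11 for *Slco1c1* (edgeR, adjusted p = 0.000577). The same 2 members were lower in vein-marker cells than in cells of neither group, by -1.18 ± 0.15 (edgeR, adjusted p = 1.24e-09) and -0.41 ± 0.11 (edgeR, adjusted p = 0.0219), beside 2.58% of all genes. Between artery-marker cells and cells of neither group 0 members were called by edgeR, with *Slco1a4*, *Slc16a1* and *Cldn5* at an unadjusted p under 0.05, where 11.3% of all genes lay under it and 1.6% were called. *Mfsd2a* had 700 and 540 CPM in artery-marker, 591 and 582 in neither and 519 and 420 in vein-marker cells, and its difference of 0.36 ± 0.12 between artery and vein missed the threshold (edgeR, adjusted p = 0.0631). *Cldn5* had an artery minus vein difference of -0.04 ± 0.09 (edgeR, adjusted p = 0.9), at 6137, 6616 and 6074 CPM untreated and 3478, 3987 and 3517 CPM with 4OH-tamoxifen. Vein-marker cells were the deepest, with medians of 9039 and 6798 UMIs against 5965 and 4502 in artery-marker cells and 3653.5 and 3074.5 in neither, and the part of depth was not tested. Without library as a block only *Slco1a4* was called, in both comparisons with vein-marker cells. The shares of all genes called were then 0.316% against artery-marker cells and 0.0753% against neither. *Slco1c1* also lost its call between vein and neither with a segment threshold of 1 UMI (1.71% of all genes called) or without a filter on low counts (1.05%).

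**Figure D4:**
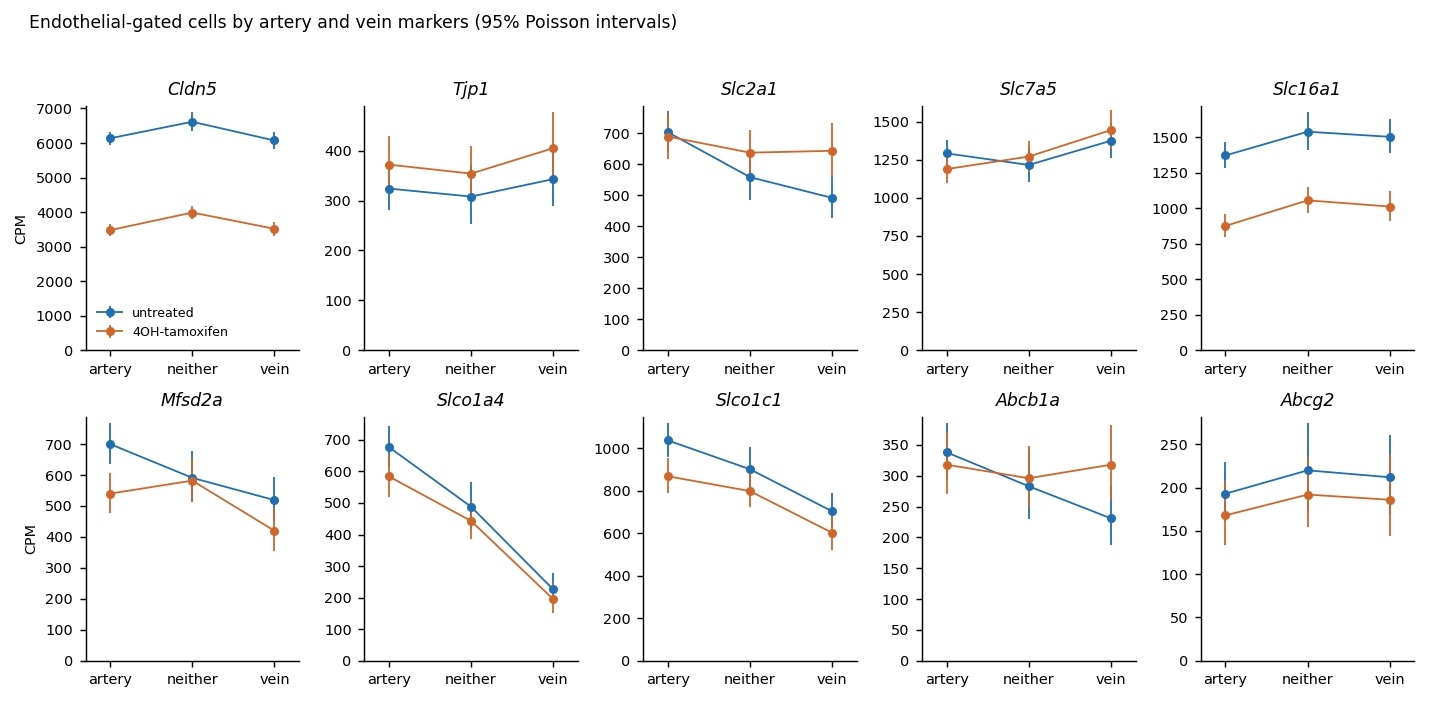
CPM of each member in endothelial-gated cells with artery markers, neither group or vein markers, for the untreated (blue) and 4OH-tamoxifen (orange) libraries, with 95% Poisson intervals and axes from 0. *Slco1a4* has 677 and 584 CPM in artery-marker and 226 and 195 CPM in vein-marker cells, and *Cldn5* differs between libraries in every group.

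The 4OH-tamoxifen library was compared with the untreated one within endothelial-gated cells as a ratio of CPM, with intervals that cover counting error only. *Cldn5* was past 1.5-fold, with a ratio of 0.589 (0.569 to 0.61), beside 4.43% of genes with at least 100 UMIs that were past it in the same direction and 4.15% in the other. *Slc16a1* came next at 0.673 (0.627 to 0.721), just short of 1.5-fold, and was past it at 0.63 when CPM was averaged over single cells and at 0.664 with a gate of 1 UMI. No other member was past it in the summed UMIs. *Mfsd2a* (0.846), *Slco1c1* (0.855) and *Slco1a4* (0.868) were lower by less, with intervals below 1. *Tjp1* was the only member whose interval lay above 1, at 1.15 (1.01 to 1.31). For *Slc7a5* (0.991), *Slc2a1* (1.09), *Abcb1a* (1.06) and *Abcg2* (0.885) the intervals included 1. The median ratio over the members was 0.876, and that over all genes was -0.01 on the log2 scale.

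All 8 endothelial reference genes had ratios below 1, from 0.631 for *Emcn* to 0.984 for *Pecam1*. The intervals of *Pecam1* (0.868 to 1.12) and *Cdh5* (0.791 to 1.04) included 1, and that of *Tek* (0.732 to 1) reached it. The median UMI count of endothelial-gated cells was lower in the 4OH-tamoxifen library (3824 against 5220), and the ratios were therefore also taken at an equal 2000 UMIs per cell. At that depth *Cldn5* had a ratio of 0.566 and *Slc16a1* of 0.752, and *Mfsd2a* had 0.705, *Slc7a5* 0.866 and *Slc2a1* 0.877, so the ratio of *Slc2a1* turned from above to below 1. *Cldn5* was also lower in the 4OH-tamoxifen library in astrocyte-gated (0.201), microglia-gated (0.29) and oligodendrocyte-gated cells (0.545), where it was at background level. Without the few cells that carried endothelial reference UMIs, *Cldn5* had 10.8 and 11.4 CPM in microglia-gated cells, with overlapping intervals, and 22.2 and 11.2 CPM in astrocyte-gated and 12.7 and 6.46 CPM in oligodendrocyte-gated cells. In pericyte-gated cells *Cldn5* was at 134 and 297 CPM, a ratio of 2.22 (0.901 to 5.37). Doublet removal differed between the libraries, with 6 of 3767 untreated and 544 of 10241 4OH-tamoxifen barcodes called. A rate set by the number of barcodes would call 114 and 839. The part of doublets in the *Cldn5* ratios of these other classes was not tested. The share of genes past 1.5-fold was 6.45% higher and 5.01% lower with 4OH-tamoxifen in astrocyte-gated cells, 6.27% and 5.33% in microglia-gated cells, 2.75% and 2.72% in oligodendrocyte-gated cells, 3.33% and 8.21% in OPC-gated cells and 9.16% and 5.83% in neuron-gated cells. *Slc16a1* in astrocyte-gated cells, which was above background, had a ratio of 0.762 (0.678 to 0.856), and *Slco1c1* there had 0.564 (0.453 to 0.7). *Mfsd2a* differed little between libraries in astrocyte-gated (0.902, 0.811 to 1) and OPC-gated cells (0.825, 0.659 to 1.03). Whether any of these ratios comes with the treatment, the batch or the pool of mice cannot be told apart.

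**Figure D5:**
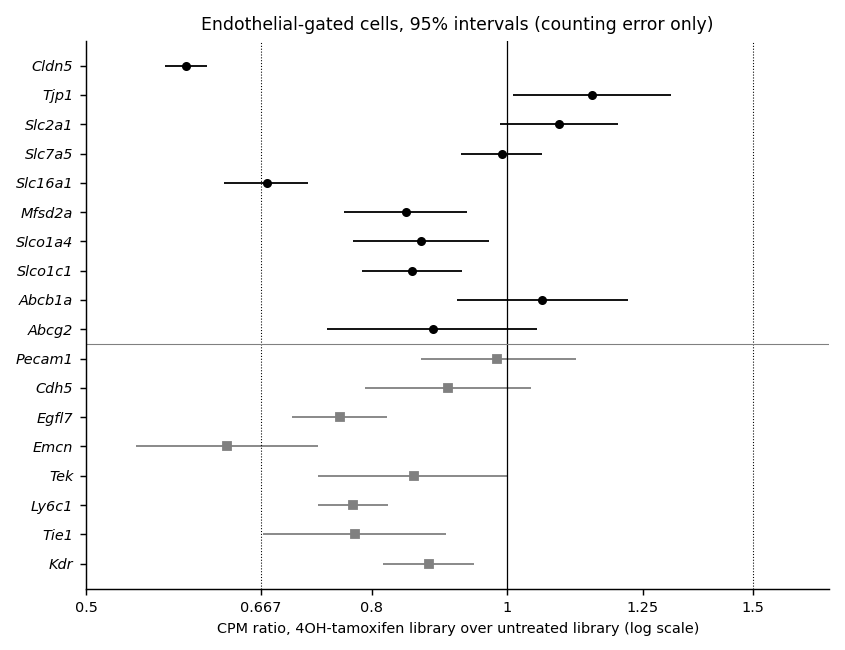
Ratio of CPM in the 4OH-tamoxifen library over the untreated library in endothelial-gated cells (log axis) for the 10 members (black circles) and 8 endothelial reference genes (grey squares), with 95% intervals of counting error; dotted lines mark 1.5-fold in either direction. *Cldn5* at 0.589 lies beyond the lower line and *Slc16a1* at 0.673 next to it. The points of all reference genes lie below 1, though some of their intervals reach or include 1.

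Other genes of the barrier were taken from 5 lists of 102 genes. Of 92 tested, 68 were higher and 9 lower in endothelial-gated cells, beside 25.2% and 12.4% of all genes, and the median log2 difference was 3.52 against 0.16 over all genes. Of 13 junction genes tested, 10 were higher and 1 lower. The highest levels were those of *Esam* (696 CPM), an adhesion molecule of endothelial junctions, *Lsr* (375 CPM), which organises tricellular junctions, *Cdh5* (310 CPM), the endothelial cadherin, and *Cgnl1* (log2 difference 4.54, edgeR, adjusted p = 4.05e-37), a cytoplasmic junction protein. *Jam3* was lower, with 16.1 CPM against 268 CPM in oligodendrocyte-gated cells. Of 26 further carriers and partners, 19 were higher and 5 lower. Of the genes called higher, 2 of the 10 junction genes and 4 of the 19 carriers were highest in another class, such as *F11r* (192 CPM in microglia-gated cells against 134) and *Slc38a3* (392 CPM in astrocyte-gated cells against 274), both named after their values were seen. *Bsg*, the chaperone of monocarboxylate carriers, had 12808 CPM, *Slc7a1*, a cationic amino acid carrier, 964 CPM, *Slc6a6*, the taurine carrier, 937 CPM and the scaffold gene *Slc9a3r2* 597 CPM. *Slc6a9*, a glycine carrier, and *Slc27a1*, a fatty acid carrier, were lower and highest in astrocyte-gated cells at 511 and 152 CPM.

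Among 14 efflux pumps 5 were higher, 2 lower and 7 had no call, a mixed list whose median log2 difference of -0.09 lay below the all-gene median. *Abca1*, a cholesterol exporter, had 232 CPM in endothelial-gated cells but 251 CPM in astrocyte-gated cells, and *Abca3*, a lipid transporter, had 44.6 CPM against 134 CPM in neuron-gated cells. *Abcg1* and *Abcc4* had 88.4 and 51.9 CPM, and 3 of the 5 pumps called higher were highest in endothelial-gated cells. *Abca2* was lower and highest in oligodendrocyte-gated cells at 428 CPM, and *Abcb10* was lower with its highest level in pericyte-gated cells at 44.7 CPM. Of 13 transcytosis and receptor genes 8 were higher and 1 lower. *Tfrc*, the transferrin receptor, had 1036 CPM, *Lsr* 375 CPM, *Lrp8* 327 CPM and *Cav1*, the caveolar coat protein, 194 CPM, while *Lrp1* was lower and highest in astrocyte-gated cells at 404 CPM. *Plvap*, a marker of leaky fenestrated vessels, had 2.19 CPM in endothelial-gated cells and no call. It was named after its value was seen.

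All 27 tested genes of the Wnt and barrier programme list were higher in endothelial-gated cells, with a median log2 difference of 4.85. The call is against the mean of the other classes, and 19 of the 27 were highest in endothelial-gated cells while 8 were highest elsewhere, such as *Nr2f2* (395 CPM in pericyte-gated cells against 91.7), *Tspan12* (132 CPM in OPC-gated cells against 74.9) and *Axin2* (71.2 CPM in fibroblast-gated cells against 34.7), which were named after their values were seen. *Ctnnb1*, which encodes beta-catenin, had 520.0 CPM, the Wnt target *Nkd1* 481 CPM, the transcription factor *Foxq1* 446 CPM and the ETS factor *Fli1* 261 CPM. In DESeq2 67 of the 5 lists' genes were called higher and 12 lower. Of all its calls 48.5% were in the higher direction, against 67% in edgeR, so the edgeR shares of all genes do not apply to these counts.

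For each member the genes with the most similar pattern over the 16 class and library sums were found by Pearson's r of log2(CPM + 10) among 12213 genes, as a description. *Cldn5* was most like *Icam2* (0.975) and *Pglyrp1* (0.972), *Slco1a4* most like *Erg* (0.983) and *Lmntd1* (0.980), and *Abcb1a* most like *Cdkn2b* (0.998) and *Ly75* (0.996). *Slc2a1* and *Slc16a1* were most like each other (0.971), and both had *Slc30a1* next (0.958 and 0.96). *Slco1c1* was nearest to *Id1* and *Ly6a* (both 0.935), *Tjp1* to *Rhoc* (0.945) and *Mier1* (0.932), and *Slc7a5* to *Yes1* (0.925) and *Gpcpd1* (0.924). The lowest likeness was that of *Abcg2* to *Sav1* (0.904) and *Foxp1* (0.9) and of *Mfsd2a* to *Dock1* (0.888) and *Cd320* (0.874). The 16 sums share 2 libraries, and genes restricted to 1 class all have high r with each other.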

How the data were processed

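The authors made the libraries with 10x v2 chemistry, converted reads with bcl2fastq 2.18.0.12 and counted UMIs with Cell Ranger 2.2.0 on mm10/GRCm38, per the labels' processing notes. The deposited values are raw counts of UMIs per gene and barcode (3767 and 10241 barcodes, 18496942 and 34704167 UMIs), for barcodes called as cells, with no normalization and before cell filters. Cells were left out by the limits the study states: doublets called by Scrublet within scanpy 1.11.5, here at its automatic threshold (6 and 544), fewer than 800 genes, over 50 hemoglobin UMIs or over 20% mitochondrial UMIs. This left 3339 and 8558 cells, which need not be the cells the study analysed. The automatic threshold was 0.512 untreated and 0.179 with 4OH-tamoxifen, so doublet removal differed between the libraries. The study's Scrublet threshold is not given in the sources used here, and its filter on rare genes was not applied. UMIs were summed per class and library and scaled to 1000000 UMIs (CPM). The 95% intervals are exact Poisson for CPM, Clopper-Pearson for shares and conditional exact for ratios, and cover counting error only.

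The test was edgeR 4.0.16 (TMM, filterByExpr, quasi-likelihood, Benjamini-Hochberg over all genes tested) on 16 sums, with class and library as terms and the gate markers left out. The library term blocks on the shared pool, since each library gives 1 sum to every class, and the gate markers were not tested. DESeq2 1.42.0 was an alternative. SEs were taken from the F statistics. The fit was tested on simulated data. Gene positions are those of GENCODE vM21 (GRCm38), matched by gene ID, and promoters are those of RefSeq (GRCm38.p6). *Afdn*, *Cavin1* and *Cavin2* were found as *Mllt4*, *Ptrf* and *Sdpr*. Named genes were all members, in each list the 4 called higher with the largest endothelial CPM and the 2 called lower with the largest CPM in another class, the 4 ligands with the largest CPM, the 3 estrogen receptors and the 2 genes most like each member. The members, lists and tests were chosen with earlier results of these data known. Alternatives changed the gate, the filters on cells, the doublet calls, the depth, the classes (Leiden clusters), the filter on low counts, the block and the test.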

Additional observations from a re-analysis of the deposited data

Results flagged for a closer look

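*Slc16a1* and *Abcg2* ran in opposite directions between the libraries, higher with 4OH-tamoxifen in the summed neuron-gated cells and lower in another class. In neuron-gated cells *Slc16a1* had 22.9 CPM (27 UMIs) untreated and 39 CPM (91 UMIs) with 4OH-tamoxifen, a ratio of 1.7 (1.1 to 2.73), while the ratio was 0.673 (0.627 to 0.721) in endothelial-gated and 0.762 (0.678 to 0.856) in astrocyte-gated cells. *Abcg2* had 5.09 CPM (6 UMIs) and 14.6 CPM (34 UMIs) in neuron-gated cells, a ratio of 2.87 (1.19 to 8.35), against 0.568 (0.354 to 0.905) in astrocyte-gated cells. Without the astrocyte-gated cells that carried endothelial reference UMIs, *Abcg2* had 13.2 CPM (8.97 to 18.7) and 10.3 CPM (7.22 to 14.3) there, with overlapping intervals. The same step in neuron-gated cells left out 22 of 138 and 26 of 414 cells. *Slc16a1* then had 20 CPM (11.7 to 32.1) and 39.5 CPM (31.5 to 49) in neuron-gated cells. *Abcg2* had 7.07 CPM (2.6 to 15.4) and 15.2 CPM (10.4 to 21.5), and the intervals overlapped for both genes. The differences were not tested, as each condition has 1 library. In neuron-gated cells neither gene was above the highest endothelial reference gene in both libraries, but *Abcg2* was above it with 4OH-tamoxifen (8.03% of its endothelial level, 5.44 to 11.5, against 5.17%). The neuron-gated cells were also spread differently over clusters in the 2 libraries, as 1 Leiden cluster held 2 of 138 untreated and 76 of 414 4OH-tamoxifen cells. Without it, a choice made after seeing the data, the neuron ratios were 1.64 (0.963 to 2.89) for *Slc16a1*, an interval that includes 1, and 2.81 (1.11 to 8.45) for *Abcg2*. Within the other neuron clusters the *Slc16a1* ratio was 1.91 (0.933 to 4.2), 3.42 (0.383 to 162) and, the other way, 0.789 (0.25 to 2.38).

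Cells that passed the filters but fell in no class, 1067 untreated and 3778 with 4OH-tamoxifen, held 3 members whose lower 95% limit of counting was above the level in every class other than endothelial over both libraries. *Cldn5* had 325 CPM (315 to 334) against at most 179 (115 to 266, 24 UMIs in pericyte-gated cells). *Slco1a4* had 29 CPM (26.4 to 31.9) against at most 10.2 (1.23 to 36.8), and *Abcb1a* had 18.6 CPM (16.4 to 20.9) against at most 14.9 (1.8 to 53.8). Those last 2 levels rest on 2 UMIs each, in fibroblast- and pericyte-gated cells, and their intervals include the values of the cells in no class. *Slco1c1* had 62.5 CPM (58.6 to 66.7) against 58.8 (52.7 to 65.3) in astrocyte-gated cells. The endothelial cluster of the Leiden grouping held 758 cells, of which 460 were in the *Flt1* gate.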

How the results depend on the processing

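Over 120 member log2 ratios from 12 alternatives to the edgeR fit, all 120 kept the direction and stayed past the threshold, from 2.34 to 9.88, and all 140 CPM ratios to the other classes stayed above 1, the lowest at 4.68. Genes called lower, 1611 in all, numbered 464 with no UMI of another gate marker allowed and 2723 with DESeq2, and list genes called lower, 9 in all, numbered 5 with at most 10% mitochondrial UMIs. Members called between artery and vein went from 2 to 1 with no replicate block, and between vein and neither from 2 to 1 with no replicate block, a segment threshold of 1 UMI or no filter on low counts. With no replicate block the share of all genes called went from 4.53% to 0.316% between artery and vein. Between vein and neither it went from 2.58% to 0.0753%, and was 1.71% and 1.05% with the other 2 changes. The block by library, which pairs the sums of 1 pool, changed no member's call against the other classes. The counts with no replicate block there were 3011 genes higher, 68 list genes higher and 18 neighbouring pairs. Against the second-highest reference gene, 4 in place of 2 members lay above it in microglia-gated cells and 4 in place of 0 in neuron-gated cells, and the counts of the other classes stayed within 1.5 times. The median CPM ratio over the members, 25.5, was 21.6 with no UMI of another gate marker, 32.1 with at least 1200 genes per cell, 37.4 with at most 10% mitochondrial UMIs, 19.2 after thinning and 16.6 with each cell's own CPM. With 1 library left out it ranged from 24.3 to 25.7, as values only, because 8 sums for 8 classes leave no residual degrees of freedom. The median share of endothelial-gated cells with a member, 87.4%, was 82.5% with no UMI of another gate marker, 91.5% with at least 1200 genes, 67% after thinning, 82.1% in Leiden classes and 69.3% with at least 2 UMIs, and ranged from 84.8% to 90.5% with 1 library left out. The median library ratio, 0.876, lay between 0.858 and 0.9. The cause of these shifts was not tested, except that thinning and a minimum of 2 UMIs remove detections by construction. The *Slc2a1* ratio between libraries, with an interval that includes 1, was 1.09 and 0.877 after thinning.

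The pericyte and fibroblast classes are limited most, by their few cells and small UMI sums: 0 UMIs in all fibroblast-gated cells allows 15.3 CPM at 3 counts. With 1 pool per library, the spread holds treatment and batch as far as their difference varied between classes. The pools hide differences between mice.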

Other observations

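Of 9 ligand genes tested, 2 were higher and 1 lower in endothelial-gated cells and 6 had no call, shares close to those over all genes (25.2% higher and 12.4% lower). *Sparcl1*, a matrix protein of astrocytes, had 4859 CPM in astrocyte-gated cells and 892 CPM in endothelial-gated cells, with no call (log2 difference from the mean of the other classes 0.28, edgeR, adjusted p = 0.091). *Agt*, which encodes angiotensinogen, was lower in endothelial-gated cells, with 26.4 and 27.8 CPM, and astrocyte-gated cells had 1007 CPM untreated and 728 CPM with 4OH-tamoxifen. *Pdgfb*, the signal that recruits pericytes, was higher in endothelial-gated cells, with 162 and 180.0 CPM and a log2 difference of 5.25 (edgeR, adjusted p = 2.78e-36). *Tgfb1* was also called higher (3.15, edgeR, adjusted p = 1.11e-27), at 167 and 121 CPM, beside 237 and 243 CPM in pericyte-gated and 252 and 194 CPM in microglia-gated cells.

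The nuclear estrogen receptors *Esr1* and *Esr2*, to which 4OH-tamoxifen binds, were sparse in endothelial-gated cells. *Esr1* had 1 UMI there untreated and 0 UMIs after 4OH-tamoxifen and was highest in neuron-gated cells, at 17.8 and 8.58 CPM. *Esr2* had 0 UMIs in every gated class. *Gper1*, a membrane receptor for estrogen, was highest in pericyte-gated cells at 422 and 297 CPM and was called higher in endothelial-gated cells (31.3 and 36 CPM, log2 difference 2.99, edgeR, adjusted p = 1.02e-13). That is 7.42% and 12.1% of its pericyte-gated level, below the 10.8% and 16.8% at which the summed pericyte markers stood in endothelial-gated cells.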
